A study of Mus musculus with 18 samples.

Results

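CTCF binding in mouse heart was compared between animals that lost the RNA methyltransferase METTL3 in cardiomyocytes (Mettl3 KO) and WT animals. CTCF is a zinc finger protein that binds DNA directly and, together with cohesin, holds the anchors of chromatin loops and the borders of topological domains. METTL3 is the catalytic subunit of the complex that writes N6-methyladenosine (m6A) on RNA while it is transcribed. Its substrate is RNA, and CTCF sites are usually shared between tissues, so the comparison asks which binding sites changed in a heart without cardiomyocyte METTL3, and what kind of site they are.

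The regions compared were all regions of chromosomes 1 to 19 in the deposited table, 99188 of 101256 in the whole series. They were chosen by position only. Of these, 59341 had enough CTCF signal to be tested (a normalized value of 10 or more in 2 or more of the 6 CTCF libraries), and 39847 did not and are described only where named. Mettl3 KO hearts had the genotype Mettl3lox/lox:alphaMHC-MerCreMerpos, in which the Myh6 (alphaMHC) promoter drives a tamoxifen-inducible Cre in cardiomyocytes, so the other cells of the heart keep Mettl3. Per the study's methods such mice received tamoxifen on 7 days from an age of 10 to 16 weeks, and each chromatin sample came from the ventricles of 2 adult hearts. The methods give tamoxifen to floxed control mice without Cre too, but the control libraries here are labelled WT only, so loss of Mettl3, the Cre transgene and tamoxifen cannot be told apart here. The other genotype, trdn-as KO (written Trdn-as KO below), lacks a cardiac long non-coding RNA and served to estimate the spread. Each genotype had 2 CTCF libraries, 2 libraries for the RNA polymerase II subunit B1 (Pol II) and 1 IgG library. The labels do not say whether both libraries of a genotype came from separate hearts, so p-values measure the spread between libraries, which may be technical.

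The 4 compared CTCF libraries were of even quality. Between 32.1% and 39.2% of their uniquely mapped reads lay in the regions, against 4.91% and 5.71% in the WT and Mettl3 KO IgG libraries, and an estimated 7574019 to 10163559 reads per CTCF library fell in the regions. One read was worth 0.284 to 0.406 units of the normalized value in these CTCF libraries, and 2.55 (WT) and 4.61 (Mettl3 KO) units in the IgG libraries. Ratios to IgG at sites with low IgG values thus rest on few IgG reads, which were set to at least 3 over both libraries. The labels were checked with the MerCreMer transgene, whose hormone-binding parts derive from Esr1, the gene of estrogen receptor alpha. At 5 regions inside Esr1 (chromosome 10, GRCm39) Pol II values summed to 1566 over both Mettl3 KO libraries and to 2 over both WT libraries. The tissue label was checked with Pol II at the promoters of 8 cardiomyocyte markers, which summed to 20713 and 22057 in WT against 21202 and 21560 in Mettl3 KO.

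Promoter sequence was examined for the core of the CTCF motif, spelled CCNNNAGNNGGC and searched on both strands in windows from 250 bases before to 50 bases after the start (RefSeq, GRCm38.p6, matched by symbol). It was present in 8.61% of all 32851 promoter windows. Among tested promoter peaks within 300 nt of a start whose gene has 1 window, the share was 30 of 300 in the weakest quartile of CTCF strength (mean value of the 4 libraries), 76 of 713 in the second, 235 of 2130 in the third and 376 of 1794 in the strongest. Peaks that differed between the genotypes at an adjusted p below 0.05 are named called peaks. Of the 36 genes with a called promoter peak, 19 had a window. Of the 16 called promoter peaks whose gene has a single window 1 held the core, at Prkar2a, whose peak is centred 3142 nt from the start. The windows printed here are those of 5 protein-coding genes with a single window and a called peak centred near the start, shown as examples of promoters that lost (Robo4, Btnl9) or gained CTCF (Kcnt2, Unc5c, Itgbl1). Ccdc9b is shown beside them as the strongest tested protein-coding promoter peak of this kind that holds the core once and was not called (298 and 298 in WT, 299 and 276 in Mettl3 KO, log2 fold change -0.05). Capitals mark the core, here on the reverse strand.
Robo4: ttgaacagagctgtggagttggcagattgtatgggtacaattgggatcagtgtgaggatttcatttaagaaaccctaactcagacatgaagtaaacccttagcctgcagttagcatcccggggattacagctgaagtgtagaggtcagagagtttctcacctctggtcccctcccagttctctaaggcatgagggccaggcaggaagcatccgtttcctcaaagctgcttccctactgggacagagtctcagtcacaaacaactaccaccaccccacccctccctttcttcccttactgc
Btnl9: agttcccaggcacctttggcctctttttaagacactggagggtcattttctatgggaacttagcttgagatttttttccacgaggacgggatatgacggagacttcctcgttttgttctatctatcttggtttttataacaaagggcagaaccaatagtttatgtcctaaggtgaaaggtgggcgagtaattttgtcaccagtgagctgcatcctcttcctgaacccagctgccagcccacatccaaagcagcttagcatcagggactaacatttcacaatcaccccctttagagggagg
Kcnt2: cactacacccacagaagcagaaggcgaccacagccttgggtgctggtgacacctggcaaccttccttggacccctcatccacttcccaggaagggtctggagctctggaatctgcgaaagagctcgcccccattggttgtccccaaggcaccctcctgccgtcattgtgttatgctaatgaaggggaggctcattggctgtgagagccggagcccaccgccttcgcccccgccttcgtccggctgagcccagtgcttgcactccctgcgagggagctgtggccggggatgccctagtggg
Unc5c: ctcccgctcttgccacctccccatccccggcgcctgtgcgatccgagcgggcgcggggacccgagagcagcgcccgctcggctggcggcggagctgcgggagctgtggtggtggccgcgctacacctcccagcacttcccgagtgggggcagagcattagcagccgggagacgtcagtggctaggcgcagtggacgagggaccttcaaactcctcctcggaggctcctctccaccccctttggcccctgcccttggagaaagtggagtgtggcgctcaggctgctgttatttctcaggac
Itgbl1: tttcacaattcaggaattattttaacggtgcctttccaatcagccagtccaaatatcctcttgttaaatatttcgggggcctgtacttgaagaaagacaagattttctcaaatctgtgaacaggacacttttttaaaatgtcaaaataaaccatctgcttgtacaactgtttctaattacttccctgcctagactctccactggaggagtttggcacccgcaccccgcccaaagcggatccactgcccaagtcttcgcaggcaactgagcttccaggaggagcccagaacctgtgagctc
Ccdc9b: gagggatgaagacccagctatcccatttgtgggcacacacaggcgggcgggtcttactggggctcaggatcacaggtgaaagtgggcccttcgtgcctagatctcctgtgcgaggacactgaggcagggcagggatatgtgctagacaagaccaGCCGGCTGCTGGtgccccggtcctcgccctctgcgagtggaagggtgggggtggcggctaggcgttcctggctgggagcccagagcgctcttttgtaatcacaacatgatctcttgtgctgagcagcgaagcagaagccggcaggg
None of the 5 called windows held these letters, and Unc5c and Kcnt2 had a GC content of 68.3% and 62.7% against 45.3% for Itgbl1. A peak can extend beyond the window, and absence of the letters says nothing about binding elsewhere in it.

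Few CTCF sites passed the test for a difference between the genotypes. With limma and Benjamini-Hochberg adjustment over all tested regions, 60 autosomal peaks were higher and 49 were lower in Mettl3 KO at an adjusted p below 0.05, which is 0.184% of the tested peaks (0.101% higher, 0.0826% lower). The 2 genotypes did not overlap at any of the 109 called peaks, which the test nearly ensures, and of all tested peaks 15.9% had both Mettl3 KO libraries above and 27.7% below both WT libraries. Over all tested peaks the balance ran the other way, with 39.0% above 0 and 60.6% below 0, and with 3133 higher and 6211 lower peaks at an unadjusted p under 0.05 (5.28% and 10.5%, 15.7% in all). That balance rested on 1 library: without WT replicate 1 the counts were 2527 higher and 2557 lower, and with libraries scaled on the strongest peaks they were 4623 and 5147. The log2 fold changes of the higher peaks ran from 0.53 to 1.85 (median 1.07), and those of the lower peaks had a median of -0.85. These calls depended on the model, which pooled the spread over all 3 genotypes. With the 4 WT and Mettl3 KO libraries alone, or with any 1 of these libraries left out, 0 peaks passed, while 4217 to 9665 had an unadjusted p under 0.05 in those fits. Without the variance trend or without the filter on low values 0 passed, with a replicate block 2 passed, and with libraries scaled on the strongest peaks 441 passed. Scaling to uniquely mapped reads gave 107 higher and 57 lower peaks, a share of 65.2% higher against 55.0% in the fit described here. Testing only peaks with a value of 30 or more in 2 libraries gave 131 higher and 248 lower peaks, a share of 34.6% higher, so which direction held more peaks depended on these choices.

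**Figure D1:**
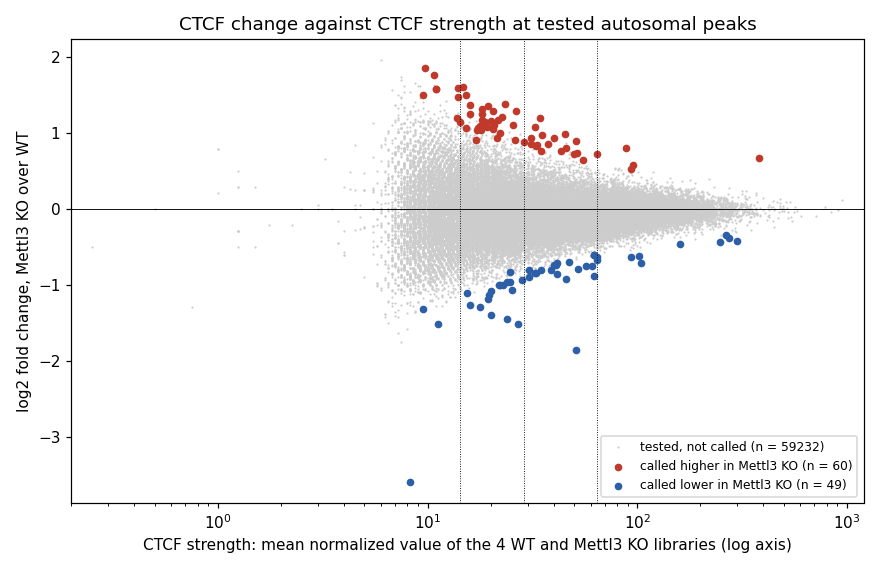
CTCF strength (mean normalized value of the 4 WT and Mettl3 KO libraries, log axis) against the log2 fold change of CTCF in Mettl3 KO over WT for 59341 tested autosomal peaks; dotted lines divide the quartiles of strength. The 60 peaks called higher and the 49 called lower lie at the edge of a cloud that narrows with strength.

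The strongest CTCF sites moved least. In the strongest quartile (mean value 64 or more, n = 14792 peaks) the log2 fold change lay between -0.27 and 0.18 from the 5th to the 95th percentile, and in the weakest quartile (mean value up to 14, n = 14857) between -0.73 and 0.67. The spread between replicates narrowed in the same way. The robust SD of the log2 difference between the 2 WT libraries was 0.39 in the weakest and 0.146 in the strongest quartile, that between the 2 Mettl3 KO libraries was 0.357 and 0.0991, and that between a WT and a Mettl3 KO library was 0.444 to 0.516 and 0.141 to 0.173. The median log2 fold change was -0.06 over all tested peaks, -0.06 in the weakest and -0.05 in the strongest quartile. In the strongest quartile the 2 WT libraries differed from each other by a median of -0.12, more than this shift, and the 2 Mettl3 KO libraries by -0.01, less than it. In the weakest quartile the median difference was 0 within both pairs. For a single value, the smallest two-sided p of an exact permutation test of 2 against 2 libraries is 0.333.

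By strength, called peaks made up 0.074% of the weakest quartile (8 higher, 3 lower), 0.317% of the second (30 higher, 17 lower), 0.242% of the third (17 higher, 19 lower) and 0.101% of the strongest (5 higher, 10 lower). The median size of a called change fell with strength, from an absolute log2 fold change of 1.58 in the weakest quartile over 1.11 and 0.82 to 0.61 in the strongest. When strength was taken from the 2 Trdn-as KO libraries, which are outside the comparison, the strongest quartile held 14 called peaks in place of 15, and the weakest held 19 in place of 11 (0.123%). These shares depended on the filter on low values and on the scaling. With a value of 30 or more in 2 libraries, 66 of 1655 peaks of the second quartile (3.99%), 220 of 14830 of the third and 93 of 14792 of the strongest (0.629%) were called. With uniquely mapped reads 0.37% of the weakest and 0.0203% of the strongest quartile (3 higher, 0 lower) were called, and with libraries scaled on the strongest peaks 0.411% and 0.608%. A rule without a test, that both groups did not overlap and their means differed at least 2-fold, found 236 higher (0.398%) and 190 lower peaks (0.32%). Of these, 184 higher and 166 lower were in the weakest quartile, 3 higher and 1 lower in the third, and 0 of 14792 in the strongest.

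The called peaks were counted by position and Pol II. Promoter peaks, annotated by the authors, reach within 5000 nt of a transcription start at an edge, and the centre of 932 of 24050 tested lies farther away. They held 18 higher and 20 lower of 24050 tested (0.158%), and distal peaks held 42 higher and 29 lower of 35291 (0.201%). Pol II was called present where its signal per mapped read was at least 3 times that of IgG in each of the 4 Pol II libraries of both genotypes. Peaks with Pol II held 13 higher and 25 lower of 22140 (0.172%), and peaks without it held 47 higher and 24 lower of 37201 (0.191%). With presence taken from the Trdn-as KO libraries the counts were 10 higher and 18 lower with Pol II, and 50 higher and 31 lower without. With presence set at 2 times IgG the directions were nearly even at peaks with Pol II, with 30 higher and 32 lower, and peaks without it held 30 higher and 17 lower. Of 14288 promoter peaks with Pol II, 7 were higher (0.049%) and 17 lower (0.119%). Of 9762 promoter peaks without it, 11 were higher (0.113%) and 3 lower (0.0307%). Of 7852 distal peaks with Pol II, 6 were higher (0.0764%) and 8 lower (0.102%). Of 27439 distal peaks without it, 36 were higher (0.131%) and 21 lower (0.0765%). The difference in direction between these classes was not tested. Among the distal called peaks, 19 of 42 higher and 13 of 29 lower lay inside a gene that itself has a promoter peak in the table (45.2% and 44.8%), where 51.3% of all tested distal peaks did.

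**Figure D2:**
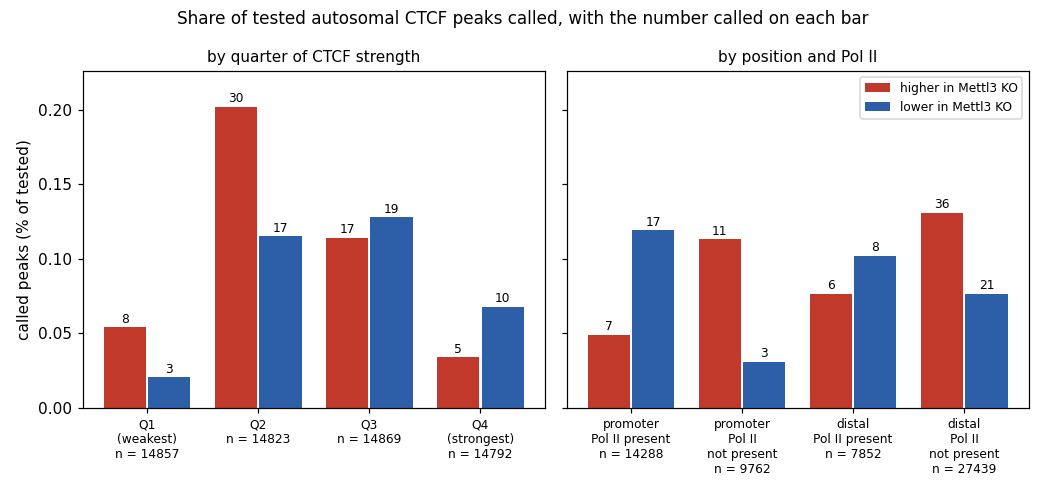
Percentage of tested autosomal CTCF peaks called higher (red) or lower (blue) in Mettl3 KO, by quartile of CTCF strength (left) and by position and Pol II (right); the number on each bar is the number of called peaks and n is the number tested. The shares run from 0.0202% to 0.202%, highest for higher peaks of the second quartile, and promoters with Pol II hold 7 higher and 17 lower peaks.

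Most called peaks were enriched over IgG. The median ratio of CTCF to IgG signal per mapped read was 4.93 at the higher and 5.18 at the lower called peaks, and 6.96 over all tested peaks. Of the 109 called peaks, 97 had a ratio of at least 3 (50 higher, 47 lower of 53796 tested) and 12 had a lower ratio (10 higher, 2 lower of 5545).

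The largest loss at a peak of moderate strength was a distal site on chromosome 15 (chr15:101045475-101047130, GRCm39), outside the genes of the table. Its normalized CTCF values were 79 and 82 in WT against 20 and 23 in Mettl3 KO, beside 29 and 29 in Trdn-as KO. Both knockouts thus lay well below WT, with a log2 fold change of -1.86 ± 0.15 (SE, n = 2 per group, limma adjusted p = 1.4e-05) for Mettl3 KO, while IgG was 51 in WT and 46 in Mettl3 KO. Its Pol II values were 57 and 39 in WT against 52 and 58 in Mettl3 KO, and overlap between the genotypes. At the other 3 lower peaks of chromosome 15 both knockouts lay below WT as well. A site inside Slc4a8 (chr15:100678778-100679211), a bicarbonate transporter gene, had 16 and 16 in WT against 1 and 0 in Mettl3 KO, beside 1 and 2 in Trdn-as KO. Its knockout values lie near 0, and its fitted log2 fold change of -3.59 (adjusted p = 0.022) became -1.31 with a pseudocount of 10. The promoter peak of Pfdn5 (chr15:102233074-102233959), which encodes a subunit of the chaperone prefoldin, had 36 and 45 in WT against 13 and 14 in Mettl3 KO, beside 15 and 13 in Trdn-as KO (log2 fold change -1.51, adjusted p = 0.0073). Both knockout comparisons share the WT libraries, so a WT-specific value moves both of them.

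At sites in Hmcn1 and Abi3bp, Mettl3 KO lay below WT while Trdn-as KO lay near WT. The site in Hmcn1 (chr1:150700244-150700897), a gene of the extracellular matrix, had 34 and 25 in WT against 10 and 11 in Mettl3 KO, beside 36 and 41 in Trdn-as KO (log2 fold change -1.39, adjusted p = 0.009). It carried 14.0 times the IgG signal and Pol II values of at most 4 in either group, which was too low to test. The site in Abi3bp (chr16:56320803-56321307), another matrix gene, had 37 and 32 in WT against 17 and 15 in Mettl3 KO, beside 32 and 36 in Trdn-as KO (log2 fold change -1.06, adjusted p = 0.022). A site outside the genes of the table (chr11:58478715-58479447) with 13.1 times the IgG signal had 84 and 78 in WT against 44 and 43 in Mettl3 KO, with 58 and 67 in Trdn-as KO (log2 fold change -0.88, adjusted p = 0.01). A distal site with Pol II on chromosome 7 (chr7:12643224-12644751) had 73 and 80 in WT against 47 and 43 in Mettl3 KO (log2 fold change -0.75, adjusted p = 0.022), and its Pol II log2 fold change was 0.18. The remaining lower distal sites with Pol II of largest change were chr14:64159765-64160677 (log2 fold change -0.96) and a site on chromosome 18 (-1.08).

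**Figure D3:**
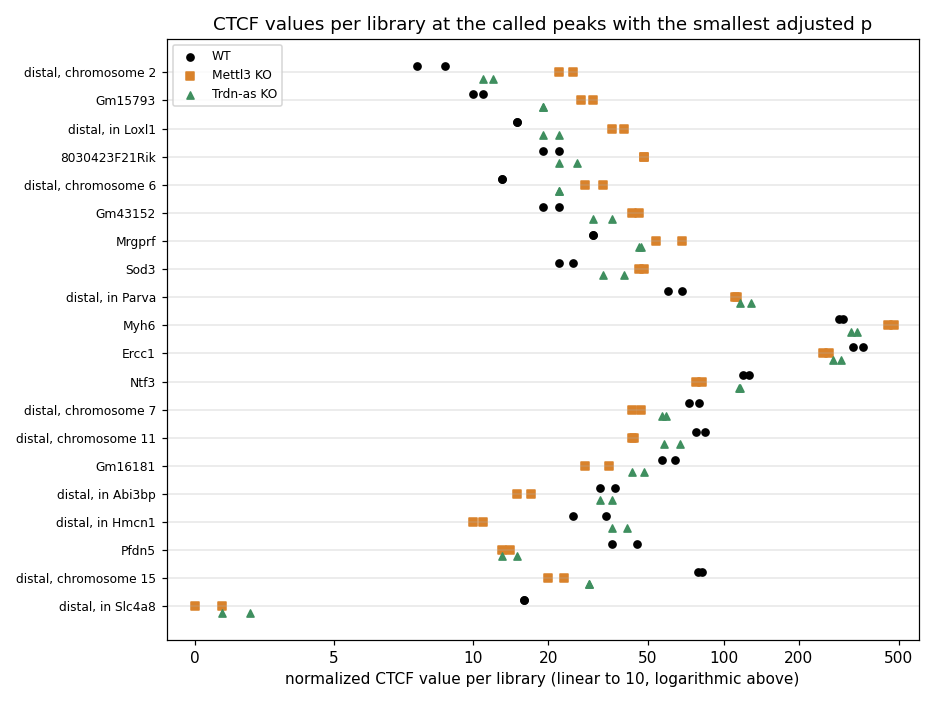
Normalized CTCF value in each library (linear to 10, logarithmic above) at the 10 called peaks per direction with the smallest adjusted p; circles are WT, squares Mettl3 KO and triangles Trdn-as KO, 2 libraries each. Peaks were picked among those whose Mettl3 KO libraries lie outside the WT libraries, as they do at every called peak. The Trdn-as KO libraries lie next to Mettl3 KO at, among others, the sites in Slc4a8, Pfdn5 and Parva.

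Pol II was present at 17 of the 20 lower and 7 of the 18 higher promoter peaks, and at 14288 of all 24050 tested promoter peaks. Ercc1, a DNA repair endonuclease subunit, had one of the strongest called sites, with 360 and 330 in WT against 263 and 250 in Mettl3 KO (log2 fold change -0.43 ± 0.07, SE, n = 2 per group, limma adjusted p = 0.022), and its Pol II log2 fold change was 0.10. Ntf3, a neurotrophin gene, had 120 and 126 in WT against 78 and 82 in Mettl3 KO (log2 fold change -0.61, adjusted p = 0.022). The promoter of the lncRNA Gm16181, inside Nfkbil1, had 57 and 64 in WT against 35 and 28 in Mettl3 KO (-0.93, adjusted p = 0.022). At Bmf, a proapoptotic gene of the BCL2 family, 28 and 27 in WT fell to 12 and 11 in Mettl3 KO, and Trdn-as KO had 13 and 11 (-1.19, adjusted p = 0.028). At Fhip2a, 33 and 38 in WT fell to 14 and 11, and Trdn-as KO had 18 and 11 (-1.44, adjusted p = 0.022). Pol II at Fhip2a was under the level called present, and was called lower with a log2 fold change of -1.56 (adjusted p = 0.012).

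Of the 49 lower peaks, 5 at genes with known roles in vessels are given as examples, picked after their values were seen. They are no test of a group, and the endothelial marker list described below had 0 called peaks of 14. Robo4, an endothelial guidance receptor, had 46 and 43 in WT against 25 and 25 in Mettl3 KO, beside 49 and 52 in Trdn-as KO. Esam, an adhesion molecule of endothelial junctions, had 320 and 299 in WT against 238 and 235 in Mettl3 KO, beside 416 and 480 in Trdn-as KO. Tal1, a transcription factor of blood and vessel precursors, had 115 and 113 in WT against 72 and 74 in Mettl3 KO, beside 101 and 76 in Trdn-as KO. Sites inside Kdr, the main VEGF receptor gene (26 and 25 in WT, 8 and 12 in Mettl3 KO), and inside Erg, an endothelial transcription factor gene (29 and 30 in WT, 12 and 17 in Mettl3 KO), were called lower as well. Trdn-as KO had 18 and 22 at the site in Kdr and 19 and 18 at that in Erg. At Tal1, Kdr and Erg both knockouts thus lay below WT. Their adjusted p-values in limma ran from 0.025 to 0.049. A site inside Angpt4, an angiopoietin gene, went the other way, with 19 and 17 in WT against 32 and 37 in Mettl3 KO (log2 fold change 0.90, adjusted p = 0.04).

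The higher peaks were led by the region over Myh6, the gene of the main adult cardiac myosin heavy chain in mouse and the source of the transgene's promoter. The region (chr14:55181949-55214903) is 32954 nt long. Its CTCF values were 299 and 289 in WT against 455 and 480 in Mettl3 KO, beside 340 and 322 in Trdn-as KO, a 1.59-fold difference between Mettl3 KO and WT (log2 fold change 0.67 ± 0.06, SE, n = 2 per group, limma adjusted p = 6.9e-05). It was hardly enriched, with 1.64 times the IgG signal, and IgG itself was 1003 in WT and 1354 in Mettl3 KO. Pol II was 10654 and 11527 in WT against 11283 and 11566 in Mettl3 KO, and did not pass its test (log2 fold change 0.04, adjusted p = 0.84). Reads of the Myh6 promoter carried by the transgene would map to this region, so a change at the endogenous gene and added copies cannot be told apart. The neighbouring promoter peak of Cmtm5 had a log2 fold change of 0.04 and did not pass.

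A pair of higher sites lay in Parva, which encodes an actin-binding adaptor of focal adhesions. The stronger one (chr7:112068656-112069871), with 23.8 times the IgG signal and no Pol II, had 68 and 60 in WT against 111 and 113 in Mettl3 KO, beside 116 and 129 in Trdn-as KO (log2 fold change 0.80, adjusted p = 0.009). The weaker one (chr7:112076812-112077125) had 2 and 6 in WT against 15 and 16 in Mettl3 KO, beside 17 and 11 in Trdn-as KO (log2 fold change 1.85, adjusted p = 0.041). At both sites the 2 knockouts lay above WT. In all, 5 such pairs of higher peaks lay within 100000 nt of each other, on chromosomes 5, 7, 12, 14 and 16, and 0 pairs of lower peaks did. These counts depend on the distance chosen. The lower peaks of Robo4 (chr9:37312917-37314540) and Esam (chr9:37437837-37443119) lay a little farther apart. The number of pairs that the spacing of all tested peaks would give was not computed, so the counts do not show that gains cluster. By chromosome, between 0 (chromosome 13) and 0.308% (chromosome 16) of the tested peaks were called.

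Higher promoter peaks stood at genes of varied function. Sod3, the extracellular superoxide dismutase, had 22 and 25 in WT against 48 and 46 in Mettl3 KO (log2 fold change 0.97, adjusted p = 0.022), and its Pol II values rose from 64 and 76 to 155 and 130 (log2 fold change 1.01, adjusted p = 0.028). Mrgprf, an orphan G protein-coupled receptor gene, had 30 and 30 in WT against 54 and 68 in Mettl3 KO (0.99, adjusted p = 0.013), with Pol II at 86 and 93 in WT against 171 and 178 in Mettl3 KO. Unc5c, a netrin receptor gene, had 10 and 9 in WT against 22 and 20 in Mettl3 KO, beside 25 and 22 in Trdn-as KO (1.07, adjusted p = 0.04). Pol II at Unc5c was 31 and 40 in WT against 110 and 117 in Mettl3 KO (log2 fold change 1.66, adjusted p = 0.001). Kcnt2, a potassium channel gene, had 10 and 12 in WT against 23 and 24 in Mettl3 KO, beside 23 and 19 in Trdn-as KO (1.03, adjusted p = 0.047). Pol II at Kcnt2 was 53 and 55 in WT against 73 and 86 in Mettl3 KO and did not pass (adjusted p = 0.35). Itgbl1, which encodes a secreted integrin beta-like protein, had 5 and 5 in WT against 16 and 18 in Mettl3 KO at its start (1.58, adjusted p = 0.04). A second called peak beside it had 10 and 10 in WT against 23 and 30 in Mettl3 KO. Pol II was under the level called present at both. At the start it was 12 and 18 in WT against 74 and 27 in Mettl3 KO (log2 fold change 1.54, adjusted p = 0.052). At the second peak it was 10 and 8 against 22 and 6. In all promoter peaks of this paragraph both knockout libraries exceeded both WT libraries.

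Among the distal and non-coding higher peaks, a site with Pol II in Loxl1, a gene of elastic fibre crosslinking, had 15 and 15 in WT against 36 and 40 in Mettl3 KO (log2 fold change 1.28, adjusted p = 0.009), and Pol II there rose by a log2 fold change of 1.21 (adjusted p = 0.038). The promoter peak of the lncRNA 8030423F21Rik had 22 and 19 in WT against 48 and 48 in Mettl3 KO (1.19, adjusted p = 0.009). A peak at the pseudogene Gm15793, inside Acadl, had 11 and 10 in WT against 30 and 27 in Mettl3 KO, beside 19 and 19 in Trdn-as KO (2.57-fold, adjusted p = 0.01), with 14.9 times the IgG signal and no Pol II. Gm43152 had 22 and 19 in WT against 46 and 43 in Mettl3 KO (1.08, adjusted p = 0.016). The other named distal gains, on chromosomes 2, 5, 6 and 16, had 3 to 14 in WT and 17 to 33 in Mettl3 KO.

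Pol II moved in the same direction as CTCF at most called sites. Of the 60 higher peaks 51 had enough Pol II to be tested, and Pol II was above WT in 48 of them and its log2 fold change had a median of 1.02, beside 0.10 over all 39926 peaks tested for both proteins. Pol II was called higher at 13 of the 51, where 0.796% of all these peaks were called higher. Pol II calls at called CTCF peaks numbered 17 in all, and 34 when only the 4 WT and Mettl3 KO Pol II libraries were fitted. Of the 49 lower peaks 40 were tested, Pol II was below WT in 34, the median log2 fold change was -0.39, and 4 were called lower, beside 0.513% of all peaks. Among these peaks 0 were called in the opposite direction in Pol II. Serping1, which encodes the C1 inhibitor of complement, was called in both, with CTCF at 22 and 33 in WT against 55 and 50 in Mettl3 KO (log2 fold change 0.93) and Pol II at 154 and 153 in WT against 267 and 277 in Mettl3 KO (0.82). Read the other way, the 318 peaks called higher in Pol II had a median CTCF log2 fold change of 0.30, with 270 above 0, and the 205 called lower in Pol II had a median of -0.25, with 177 below 0.

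The CTCF change rose step by step with the Pol II change, and more steeply at sites with little CTCF. Where CTCF was under 3 times IgG, the median CTCF log2 fold change was -0.35 at peaks whose Pol II log2 fold change was below -1 (n = 285) and 0.50 where it was above 1 (n = 227). Where CTCF was at least 3 times IgG, the corresponding medians were -0.13 (n = 1554) and 0.16 (n = 1180). The values share hearts, regions and background, so the relation is a description across peaks. The part of background chromatin signal in the CTCF differences at weak sites was not tested.

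**Figure D4:**
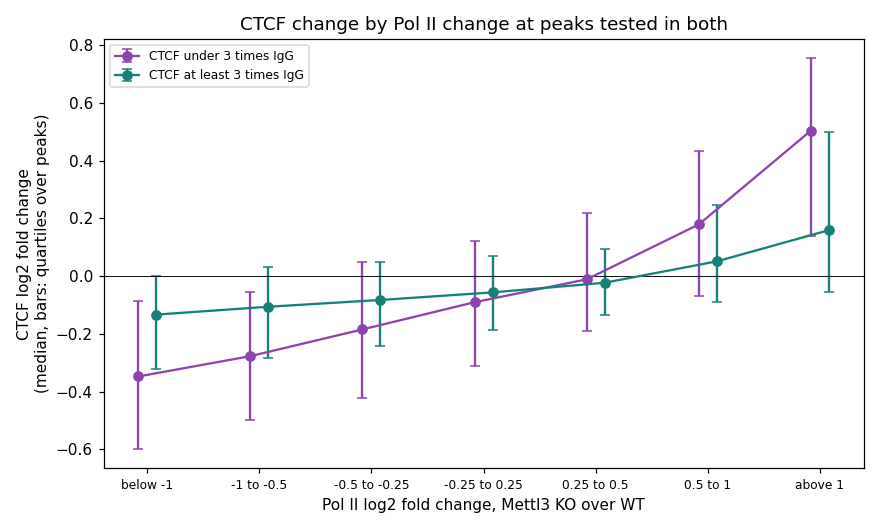
Median CTCF log2 fold change in Mettl3 KO over WT (bars: quartiles over peaks) for peaks grouped by their Pol II log2 fold change, for CTCF under 3 times IgG (purple) and at least 3 times IgG (green). The purple medians run from -0.35 to 0.50 and the green ones from -0.13 to 0.16.

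Peaks at the genes the study turns on did not pass the test. The Mettl3 promoter peak had 52 and 44 in WT against 45 and 49 in Mettl3 KO (log2 fold change -0.03 ± 0.14, adjusted p = 0.95 in limma), which does not show whether the floxed part was removed. The Ctcf promoter had 165 and 151 in WT against 152 and 150 in Mettl3 KO (-0.06), and the Trdn-as promoter 52 and 49 in WT against 51 and 52 in Mettl3 KO (0.03). Of 17 tested peaks at 15 genes that write, erase or read m6A, and of 9 peaks at 9 genes of CTCF and cohesin, 0 were called, where 0.184% of all tested peaks were. At an unadjusted p under 0.05 these lists held 2 and 1 peaks, where 15.7% of all tested peaks passed, so neither list stood above the background. Of 29 peaks at 16 sarcomere genes 1 was called, that of Myh6. None of 12 peaks at stress and fetal genes, 19 at calcium handling genes and 15 at imprinted loci with known CTCF sites was called, and the H19 peak had a log2 fold change of -0.06.

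Circadian clock genes held 1 called peak among 30 tested at 20 genes, where 0.184% of all peaks were called, and their log2 fold changes had a median of -0.13 beside -0.06 over all peaks. At an unadjusted p under 0.05, 3 were higher and 10 lower, where 5.28% and 10.5% of all tested peaks were, and both Mettl3 KO libraries were under both WT libraries at 13 of them, where 27.7% of all were. Dbp, a transcription factor at the output of the clock, had 297 and 296 in WT against 227 and 240 in Mettl3 KO, beside 312 and 314 in Trdn-as KO (log2 fold change -0.34, adjusted p = 0.04), and its Pol II fell from 3291 and 3501 to 1710 and 1650 (log2 fold change -1.01). The promoters of Per3 (98 and 93 in WT, 66 and 70 in Mettl3 KO, adjusted p = 0.063) and of Npas2 (69 and 64 in WT, 97 and 97 in Mettl3 KO, adjusted p = 0.055) missed the threshold. In Pol II, 2 of the 30 peaks of the list were called higher and 6 lower, where 0.796% and 0.513% of all peaks were. The hour at which hearts were taken is not given in the sources used here.

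Markers of other heart cells were examined beside these sites. All 14 tested peaks of 6 endothelial markers lay below 0, and the log2 fold changes had a median of -0.44, while both Mettl3 KO libraries were under both WT libraries at 11 of them, where 27.7% of all tested peaks were so ordered. None was called (smallest adjusted p = 0.098), and 9 were lower at an unadjusted p under 0.05, where 10.5% of all tested peaks were. In Pol II, 10 of the 12 peaks tested lay below 0 with a median log2 fold change of -0.43, and 0 were called. The sum of Pol II over 1 promoter peak per marker was 1966 and 2134 in WT against 1753 and 1758 in Mettl3 KO. Fabp4 alone fell by more than that sum, from 1093 and 1159 in WT to 796 and 807 in Mettl3 KO, so the other markers together did not fall. Kdr had 362 and 361 against 381 and 387, and Tek had 108 and 147 against 186 and 170. The 19 peaks of 7 fibroblast markers had a median CTCF log2 fold change of 0.17, with 15 above and 3 below 0, and 0 were called. At an unadjusted p under 0.05, 6 were higher, where 5.28% of all tested peaks were, and both Mettl3 KO libraries were above both WT libraries at 9, where 15.9% of all were. Their summed promoter Pol II was 899 and 951 in WT against 1882 and 1872 in Mettl3 KO, and 9 of 18 tested peaks were called higher in Pol II, where 0.796% of all peaks were. Leukocyte promoters had sums of 212 and 212 in WT against 204 and 173 in Mettl3 KO, and smooth muscle and pericyte promoters 357 and 444 in WT against 615 and 594 in Mettl3 KO. The latter difference lay mainly at Pdgfrb, with 217 and 257 against 410 and 405, while Acta2 had 48 and 53 against 62 and 50, and Myh11 had 30 and 41 against 38 and 29. Promoters of neuron and Schwann cell markers summed to 19 and 14 in WT against 24 and 18 in Mettl3 KO, and those of skeletal muscle markers to 815 and 922 against 840 and 778, mostly at Ckm. Adipocyte promoters summed to 168 and 201 in WT against 41 and 46 in Mettl3 KO, a difference at Ces1d alone (157 and 183 against 23 and 22), while Plin1 had 10 and 13 against 8 and 16, and Adipoq had 1 and 5 against 10 and 8. In bulk chromatin, fewer cells of a type and less signal per cell cannot be told apart, and the part of these cells in the CTCF differences was not tested.

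**Figure D5:**
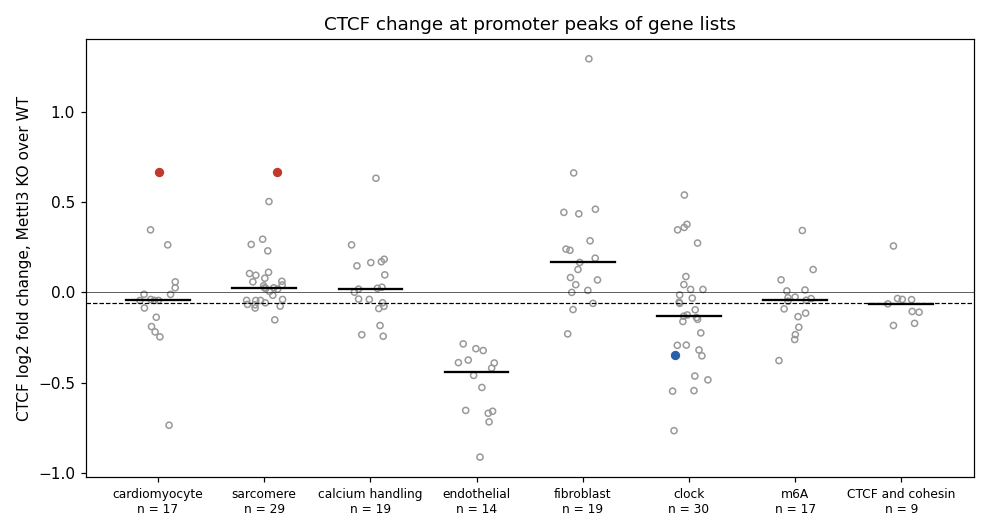
CTCF log2 fold change in Mettl3 KO over WT at each tested promoter peak of 8 gene lists; horizontal bars are medians, filled points are called peaks, and the dashed line is the median of all tested peaks (-0.06). All 14 endothelial points lie below 0, and the filled points are Myh6, which is in 2 lists, and Dbp.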

How the data were processed

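CTCF, Pol II and IgG ChIP-seq libraries of mouse ventricles were read from 1 deposited table of 101256 regions (GRCm39). Per the labels and the study's methods, the authors trimmed reads (Trimmomatic 0.39), aligned them (STAR 2.7.11b, mm39), removed duplicates (Picard 3.1.1) and multi-mapping reads, called peaks against input, merged peaks over samples, counted reads with featureCounts and normalized them with DESeq2 1.36.0. The deposited values are those counts divided by size factors and rounded, treated here as a score. The distance of a peak to a transcription start is the authors' annotation. Duplicate removal, single size factors and merged regions can change weak and broad peaks most.

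Values were tested with limma 3.58.1 (R 4.3.3) as log2(value + 1) with a variance trend over 6 CTCF libraries (value of at least 10 in at least 2), with Benjamini-Hochberg adjustment at 0.05 over the 60649 regions of all chromosomes that passed. The same fit was run for Pol II. DESeq2 and edgeR were not used, since raw counts were not used here. Fold changes on the log2(value + 1) scale understate changes of weak peaks. The value of 1 read was estimated from the spacing of values in each library, and signal per mapped read uses uniquely mapped reads of the study's reporting summary. Intervals and spreads cover these libraries only. On simulated data 97.9% of 195 peaks changed 4-fold and 63.9% of 194 changed 2-fold were recovered, with 2 and 0 false calls. The simulation fixed the dispersion at 0.005 and gave unchanged peaks the same mean in every library. It held no shifts between libraries, so its false calls do not measure how many of the calls made here are false. Gene symbols missing from 11107 promoter regions were taken by gene ID from GENCODE for 9277. Input libraries were not analysed here.

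Named peaks were, per direction, the 10 with the smallest adjusted p and the 2 largest changes in each class of position and Pol II. The 10 were picked among called peaks whose groups do not overlap, as is so for all called peaks. Called peaks of gene lists, and peaks of Mettl3, Ctcf, Trdn-as, Esr1 and Myh6, were named as well. Members and lists were chosen with earlier results of these data known. Alternatives are in the closing section.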

Additional observations from a re-analysis of the deposited data

Results flagged for a closer look

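The 5 regions inside Esr1 (gene at chr10:4561593-4955614) had too little CTCF to be tested, but their CTCF values summed to 60 over both Mettl3 KO libraries and to 0 over both WT libraries. They stood out because signal appeared in the knockout libraries and not in the WT libraries, at regions of chromosome 10 that were too weak to test. It was not above IgG: per mapped read, CTCF in Mettl3 KO was 0.895 times the IgG of the same genotype. Single values in Mettl3 KO were 3 to 10, Pol II summed to 1566 in Mettl3 KO and 2 in WT, and IgG summed to 143 in Mettl3 KO and 39 in WT. The 3 tested CTCF sites at the promoter and inside the gene, chr10:4561762-4562072, chr10:4625000-4625430 and chr10:4674925-4675214, had log2 fold changes of -0.21, -0.14 and 0.37 and did not pass.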

How the results depend on the processing

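The number of called peaks depended strongly on the processing. The cause was not tested. Against 109 calls (60 higher, 49 lower), scaling to uniquely mapped reads gave 164 (107 higher, 57 lower), scaling on the strongest quartile of CTCF peaks 441 (276 higher, 165 lower), a pseudocount of 10 gave 155, and a filter of 30 in 2 libraries 379 (131 higher, 248 lower, 34.6% higher). An adjusted p below 0.01 left 7 (4 higher, 3 lower). With no filter, only the WT and Mettl3 KO libraries, or no variance trend, limma called 0, with 12036, 9624 and 8930 peaks at an unadjusted p under 0.05. Leaving out each of the 4 libraries called 0 to 0, with 4217 to 9665 unadjusted. The 2-fold rule without a test, added after the data were seen, found 426 (236 higher, 190 lower).

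With the replicate number as a block (replicate block) 2 peaks passed (1 higher, 1 lower), both among the 109. The numbers did not pair the libraries: deviations of same-numbered WT and Mettl3 KO libraries correlated at 0.009, and those of WT and Trdn-as KO at -0.239.

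Called peaks with Pol II numbered 38, and 62 at 2 times IgG (30 higher, 32 lower). Called promoter peaks numbered 38, and 12 within 1000 nt of a start. Called peaks with CTCF under 3 times IgG numbered 12, and 21 with the ratio from the Trdn-as KO libraries, which was added after seeing the data. Pol II was called at 17 of the called peaks, and at 34 with 4 Pol II libraries. The median log2 fold change was -0.109 to -0.012 over all peaks and -0.106 to 0.014 in the strongest quartile when each library was left out, without WT replicate 2 and without WT replicate 1 giving the ends. Of the 38 named peaks 31 were called, and all 31 lost the call in 7 of the 12 alternative fits (29 with the replicate block, 4 with uniquely mapped reads). Their groups do not overlap, so a kept direction shows nothing further. The smallest called change was an absolute log2 fold change of 1.20 in the weakest quartile and 0.34 in the strongest, so smaller changes were not called there.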
